A study of Mus musculus with 9 samples.

Results

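The insulin-like growth factor (IGF) axis and its companion fetal growth genes were read in mouse pancreatic neuroendocrine tumors and in normal islets. The 10 genes were listed by name, from the 54347 genes of the count table. They are the ligands Igf1 and Igf2, the receptors Igf1r, Igf2r and Insr, the mRNA-binding proteins Igf2bp1, Igf2bp2 and Igf2bp3, the noncoding RNA H19 and the Notch-like protein gene Dlk1. All 10 were matched, and 7 reached at least 1 CPM (counts scaled to the library's size) in at least 3 of the 9 libraries, as did 15532 genes in all. Igf2bp1, Igf2bp2 and Igf2bp3 did not and were described from their counts.

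The 9 libraries came from 6 INS-p25OE tumors and 3 samples of normal mouse islets, labelled NI1, NI2 and NI3. INS-p25OE mice carry a tetracycline-responsive p25GFP transgene and the Ins2-rtTA transgene, whose insulin promoter directs the doxycycline-dependent transactivator to beta cells. p25 is a truncated form of p35, the activator of the kinase Cdk5, and the animals received doxycycline in drinking water after weaning. M1, M2 and M3, with the word "Inulin" in their titles, are called functional tumors, and M4, M5 and M6 non-functional tumors. The study classed a tumor as functional by raised hormone in the blood plasma of its host. The islets were labelled strain C57BL/6, and the transgenic mice were kept on that background too. M2 came from a female and the other 8 libraries came from males. Age was not given in the sources used here. The study's methods call its samples biological replicates, and the labels do not name the animal behind each library.

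IGF1 and IGF2 are secreted peptides that bind the tyrosine kinase receptor IGF1R, and IGF2 also binds the insulin receptor. IGF2R takes up IGF2 for degradation and does not signal through a kinase. Igf2 and H19 are reciprocally imprinted neighbours that share enhancers, Dlk1 belongs to another imprinted cluster, and all 3 are known for high expression before birth and low expression in most adult tissues. The IGF2BP proteins bind Igf2 and other mRNAs.

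The transgene product is part of p35, whose gene is Cdk5r1, so its counts were read as a check of the labels. Cdk5r1 was between 149 and 401 CPM in the 6 tumors. NI2 and NI3 had 18.4 and 12.5 CPM, whereas NI1 had 280 CPM. The library labelled NI1 therefore went against its islet label, and the edgeR fold changes against islets below are given with and without it. Over the tested genes NI1 was closer to M6 than any other of the 36 pairs of libraries were to each other, with a root mean square difference of 0.32 on the log2(CPM + 1) scale and 96.2% of genes within 1.5-fold. NI2 and NI3 came next with 0.48. The squared difference between M6 and NI1 was on average 44.4 times what counting alone would give. It was 139 times for NI2 and NI3, 362 for M1 and M3 and 831 for M4 and M5. These ratios were scaled by total counts alone, without TMM factors. The factors were 1.11 and 1.10 for M6 and NI1 but 0.693 and 1.04 for M4 and M5. The pairs are therefore not strictly comparable. M6 and NI1 were both kept as separate samples. Of the markers of beta cells, Ins2 was between 7313 and 248686 CPM over all 9 libraries. Ins1 and Ins2 were the only 2 of the 9 beta cell markers that were lower in every tumor than in every islet library. Against NI2 and NI3 alone, G6pc2 and Iapp were lower in every tumor as well. DESeq2 on all 9 libraries passed these 4 as lower in tumors, where it passed 8.06% of all tested genes. Without NI1, edgeR passed G6pc2 (log2 fold change -1.78, adjusted p = 0.0388), where it passed 8.51% of all tested genes. The log2 fold change of tumors against islets was positive for 3 of the 9, Mafa (0.06), Nkx6-1 (0.14) and Pdx1 (0.44), and negative for the others. The summed level of 6 acinar markers was between 0.725 and 109 CPM in tumors and between 178 and 3321 CPM in the islet libraries. All 6 markers were lower in every tumor than in every islet library. Of the 15532 tested genes, 492 were lower in this way. The totals were between 36468280 and 63637175 counts per library, and the limit of detection was set at 3 counts, or 0.042 to 0.119 CPM.

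Among all 10 genes Igf2 varied most on the log2(CPM + 1) scale. Igf2 (ENSMUSG00000048583) lies on the minus strand of chromosome 7 at chr7:142650766-142666816 of GRCm38. Its level was 670, 2.29 and 398 CPM in M1, M2 and M3, while the values of M4, M5 and M6 were 547, 94.2 and 830 CPM. In the islet libraries it was 695 CPM in NI1, 9.37 CPM in NI2 and 11.3 CPM in NI3. Thus 4 tumors and the library labelled NI1 lay between 398 and 830 CPM, M5 lay below them, and M2 lay below NI2 and NI3. By raw count Igf2 ranked 48 of 54347 genes in M6, 64 in NI1 and 67 in M1, but 13032 in M2. The highest tumor exceeded the lowest by 362-fold, and among functional tumors alone the range was 292-fold. The group means were 357 CPM ± 336 (SD, n = 3) in functional tumors, 491 CPM ± 371 (SD, n = 3) in non-functional tumors and 239 CPM ± 395 (SD, n = 3) in islets, and no neighbouring pair in that order differed by more than the spread. A lower value in such bulk samples can come from fewer cells of a type or from less RNA per cell, which cannot be told apart here.

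For tumors against the 3 islet libraries the log2 fold change of Igf2 was 0.83 (standard error, SE, 1.52, adjusted p = 0.796). Without the library labelled NI1 it was 5.36 (SE 1.80, adjusted p = 0.0962), with 5 of 6 tumors above both NI2 and NI3 and M2 below both. DESeq2 without NI1 gave 5.37 and passed (adjusted p = 0.00169), the only 1 of 22 alternatives to pass. Also without NI1, limma voom gave 4.12 (adjusted p = 0.344). With NI1 and M6 both left out edgeR gave 5.05 (adjusted p = 0.109). The Igf2 value thus moved with NI1, and M2 lay in the opposite direction to the other 5 tumors.

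The promoters of Igf2 are shown because this gene has the widest range of the 10 on that scale and the counts, summed per gene, do not tell which start was used. RefSeq lists 4 starts for Igf2 in GRCm38.p6. The stretches below are the 250 bases before starts 3 and 4 in its order, on the gene's strand, at chr7:142658805-142659054 and chr7:142657497-142657746. Capitals mark the GC box (GGGCGG) and the TATA-like motif CATAAA, each searched on both strands, together with TATAAA.
Igf2 start 3: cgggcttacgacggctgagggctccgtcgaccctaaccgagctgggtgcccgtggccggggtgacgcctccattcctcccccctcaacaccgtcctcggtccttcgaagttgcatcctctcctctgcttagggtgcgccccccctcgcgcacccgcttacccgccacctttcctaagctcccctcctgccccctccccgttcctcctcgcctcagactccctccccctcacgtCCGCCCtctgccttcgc
Igf2 start 4: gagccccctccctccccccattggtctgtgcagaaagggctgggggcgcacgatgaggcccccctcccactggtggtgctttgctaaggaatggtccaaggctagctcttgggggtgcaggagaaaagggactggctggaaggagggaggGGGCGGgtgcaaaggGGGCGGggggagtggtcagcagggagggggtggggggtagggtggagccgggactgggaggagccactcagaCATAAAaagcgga
The stretch of start 3 held 1 GC box at position -17 from the start and 22 CpG dinucleotides. That of start 4 held 2 GC boxes, at -100 and -85, a CATAAA at -13 and 6 CpG dinucleotides. That of start 1 held none of these motifs, and that of start 2 held a CATAAA at -152. GGGCGG was found in 32.7% of the 32851 stretches of this length in the table, CATAAA in 10.8% and TATAAA in 12.4%, so none of these letters is particular to Igf2.

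Igf2os, the antisense gene of the locus, overlaps Igf2 on the plus strand at chr7:142659693-142670356. The library kit does not mark strand, so reads of Igf2 and Igf2os in their shared bases cannot be told apart. Igf2os was 42.9, 0.0283 and 17.1 CPM in M1, M2 and M3, while the values of M4, M5 and M6 were 24.9, 3.00 and 52.2 CPM. The islet libraries had 40.8 CPM in NI1, 0.342 CPM in NI2 and 0.273 CPM in NI3. The order of the libraries was nearly that of Igf2, and M2, with 2 counts, lay under the limit of detection. Between 15.6 and 81.0 reads were assigned to Igf2 for each read of Igf2os. Gm49394, a coding gene model over the same stretch and strand, had 3 to 55 counts per library, so its share of the Igf2 reads is uncertain as well.

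**Figure D1:**
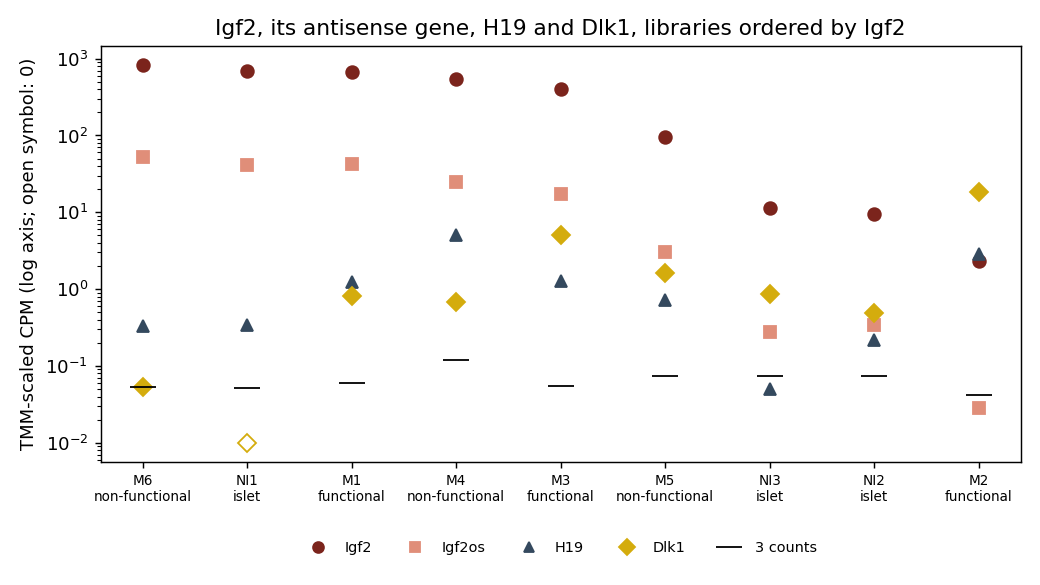
TMM-scaled CPM on a log axis of Igf2, Igf2os, H19 and Dlk1 in each of the 9 libraries, ordered by Igf2. Dashes mark 3 counts and the open symbol stands for 0 counts. Igf2 falls from 830 CPM in M6 to 2.29 CPM in M2 and Igf2os falls with it, whereas Dlk1 is highest in M2 at 18.1 CPM.

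H19 (ENSMUSG00000000031, chr7:142575529-142578143, minus strand) was far lower and did not share the order of Igf2. Its level was 1.23, 2.85 and 1.29 CPM in M1, M2 and M3. In M4, M5 and M6 it was 5.03, 0.712 and 0.334 CPM. The islet libraries had 0.343 CPM in NI1, 0.220 CPM in NI2 and 0.0496 CPM in NI3, the last from 2 counts. Of the 6 tumors, 5 lay above all islet libraries, M6 lay just under NI1, and all 6 lay above NI2 and NI3. Against islets its log2 fold change was 3.18 (SE 1.00, adjusted p = 0.163), and 3.79 without NI1 (SE 1.26, adjusted p = 0.0937). DESeq2 on all 9 libraries passed H19 with an adjusted p of 0.0151, while limma voom gave 2.80 (adjusted p = 0.280). H19 passed in 2 of 21 alternatives, both with DESeq2. H19 reached the filter of 1 CPM in 3 libraries through tumors alone, the group in which it was higher, so its entry into the test was not independent of that difference.

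Per kilobase of exon, Igf2 exceeded H19 in 8 of 9 libraries, for example with 145 against 0.136 CPM per kilobase in M6 and 1.64 against 0.0893 in NI2. M2 alone had the reverse order, with 0.401 CPM per kilobase of Igf2 and 1.16 of H19. The largest level of H19, in M4, stood beside a high level of Igf2, so the libraries did not fall into one order for both genes.

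Each of these genes hosts a microRNA, and their mature sequences are shown with the seed, bases 2 to 8, in capitals, since the host transcripts are what was measured. The sequences are from RefSeq on GRCm38.p6. miR-483 lies in Igf2 and miR-675 in H19.
mmu-miR-483-5p: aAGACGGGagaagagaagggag
mmu-miR-483-3p: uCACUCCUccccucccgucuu
mmu-miR-675-5p: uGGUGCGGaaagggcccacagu
mmu-miR-675-3p: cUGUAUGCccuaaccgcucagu
The 4 seeds differ from each other. The libraries were not made for small RNAs, and the microRNA genes themselves had 0 counts of Mir483 in all 9 libraries and 2 counts of Mir675 in M5 alone. The levels of the mature microRNAs were therefore not measured here.

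Dlk1 (ENSMUSG00000040856, chr12:109452823-109463336, plus strand) ran against Igf2 in its most extreme library. It was 0.806, 18.1 and 5.11 CPM in M1, M2 and M3. In M4, M5 and M6 it was 0.674, 1.62 and 0.0528 CPM, the last from 3 counts. NI1 had 0 counts, NI2 had 0.488 CPM and NI3 had 0.867 CPM. Only M2, M3 and M5 lay above all islet libraries, and M6 and NI1 were at or under the limit of detection. M2, the tumor with the least Igf2, held 1282 of the 1689 Dlk1 counts over all 6 tumors. The log2 fold change of tumors against islets was 3.30 (SE 1.75, adjusted p = 0.320), and 2.70 without NI1 (SE 1.80, adjusted p = 0.370). Without M2 it was 1.88 (SE 1.45, adjusted p = 0.491). Like H19, Dlk1 reached the filter through tumors alone. M2 was also the one tumor from a female, so sex and this tumor's own state cannot be told apart.

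The stretch of 250 bases before the start of Dlk1, at chr12:109452573-109452822, is given for comparison with that of Igf2.
Dlk1: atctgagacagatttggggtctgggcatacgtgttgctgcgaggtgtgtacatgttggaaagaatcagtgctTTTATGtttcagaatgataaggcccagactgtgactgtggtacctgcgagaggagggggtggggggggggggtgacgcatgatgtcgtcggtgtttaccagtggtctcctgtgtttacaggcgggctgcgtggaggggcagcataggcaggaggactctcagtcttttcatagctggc
It held a CATAAA on the opposite strand at -178, no GC box, no TATAAA and 8 CpG dinucleotides.

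Igf1 was the ligand that separated tumors from islets. Igf1 (ENSMUSG00000020053) lies on the plus strand at chr10:87858265-87937042. Its level was 20.9, 13.2 and 20.3 CPM in M1, M2 and M3, while the values of M4, M5 and M6 were 38.4, 20.5 and 6.76 CPM. The islet libraries had 5.97 CPM in NI1, 3.22 CPM in NI2 and 2.58 CPM in NI3. All 6 tumors lay above all 3 islet libraries, although M6 and NI1 were close. The mean was 20.0 CPM ± 10.6 (SD, n = 6) in tumors and 3.92 CPM ± 1.80 (SD, n = 3) in islets. Tumors exceeded islets by a log2 fold change of 2.35 (SE 0.53, adjusted p = 0.133), which did not pass. Without the library labelled NI1 Igf1 rose by 2.78 (SE 0.63, adjusted p = 0.0287), and without M6 by 2.53 (SE 0.43, adjusted p = 0.0355). With both NI1 and M6 left out the value was 2.96 (adjusted p = 0.0105), and DESeq2 on all 9 libraries gave 2.36 (adjusted p = 0.000374). On all 9 libraries limma voom gave 2.10 and did not pass (adjusted p = 0.154). It did not pass without NI1 either (adjusted p = 0.113). Igf1 passed in 5 of 22 alternatives, and their adjusted p lay between 1.92e-05 and 0.582 over all 22.

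Macrophages are a known source of IGF1 in adult tissues, and their markers were read beside Igf1. The summed level of 7 macrophage markers (Cd68, Csf1r, Adgre1, Mrc1, C1qa, C1qb and Lyz2) was 418, 674 and 524 CPM in M1, M2 and M3, while the values of M4, M5 and M6 were 1143, 897 and 415 CPM. In the islet libraries it was 388 CPM in NI1, 278 CPM in NI2 and 173 CPM in NI3. The sum was higher in every tumor than in every islet library, 4 of the 7 markers did not overlap between the groups, and 0 of the 7 were at 0 throughout. All 7 reached an unadjusted p under 0.05, 0 passed the adjusted threshold with edgeR, 3 passed without NI1 and 5 passed with DESeq2. Over all tested genes these shares were 19.8%, 0.258%, 8.51% and 8.06%, and 4.5% had all tumors above all islet libraries. M4 was highest for both the sum and Igf1, whereas M1 and M6 had almost equal sums and unequal Igf1, at 20.9 and 6.76 CPM. The sum of 5 pericyte and smooth muscle markers was highest in M4 as well, at 1161 CPM, with 930 CPM in M1 and 425 CPM in M6. That sum was between 402 and 496 CPM in the islet libraries and overlapped the tumors. The part of macrophages or of these other cells in the Igf1 result was not tested.

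For H19 the markers read beside it were those of fibroblasts. The sum of 6 fibroblast markers (Pdgfra, Dcn, Lum, Fbln1, Dpt and Thy1) was between 18.2 and 188 CPM in tumors and between 41.4 and 93.7 CPM in islet libraries, with 0 markers at 0 throughout. The groups overlapped in the sum, and M4 was again highest in both. The part of fibroblasts in the H19 result was not tested.

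**Figure D2:**
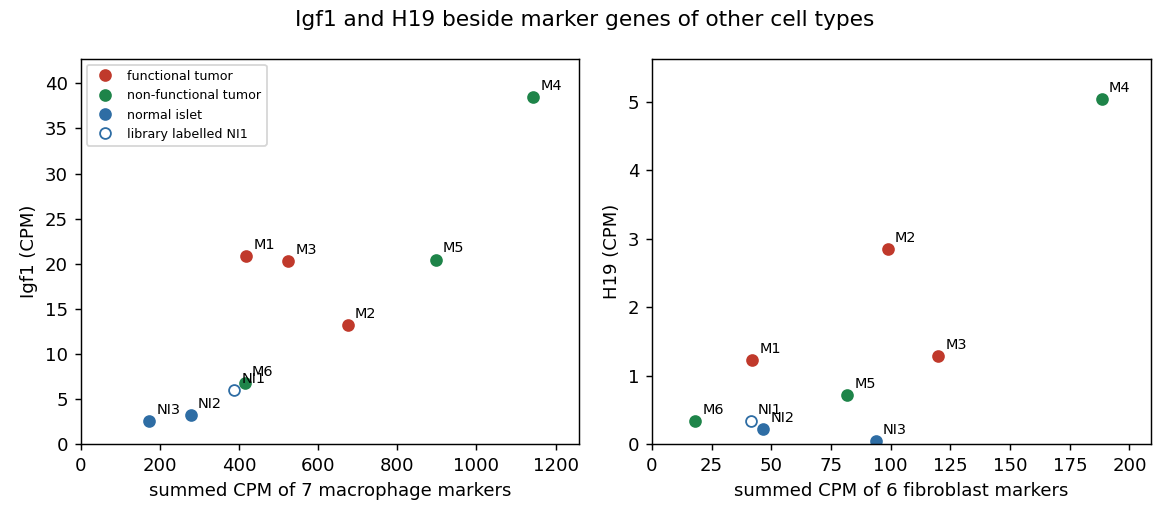
Igf1 against the summed CPM of 7 macrophage markers (left) and H19 against that of 6 fibroblast markers (right), 1 point per library, all axes linear. M4 is highest in both panels, with 38.4 CPM of Igf1 and 5.03 CPM of H19, and M6 lies next to NI1 in Igf1 and in the macrophage sum.

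All 3 receptor genes were counted in every library, and none passed the test between tumors and islets. Igf1r (ENSMUSG00000005533, chr7:67952827-68233668, plus strand) encodes the kinase receptor of both ligands. It was 55.6, 22.0 and 80.4 CPM in M1, M2 and M3, while the values of M4, M5 and M6 were 52.2, 67.8 and 66.6 CPM. NI1, NI2 and NI3 had 72.3, 67.9 and 60.0 CPM. M2 was lowest of all 9 libraries and M3 highest, so the functional tumors enclosed all others. The log2 fold change of tumors against islets was -0.22 (SE 0.32, adjusted p = 0.742), and -0.16 without NI1 (SE 0.39, adjusted p = 0.832).

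Igf2r (ENSMUSG00000023830, chr17:12682406-12769664, minus strand), an imprinted gene, encodes the receptor that clears IGF2. Its level was 199.7, 153 and 139 CPM in M1, M2 and M3. In M4, M5 and M6 it was 136, 64.4 and 180.0 CPM, and in NI1, NI2 and NI3 it was 167, 132 and 135 CPM. Only M5 stood apart, below the other 8 libraries. Its log2 fold change against islets was 0.01 (SE 0.30, adjusted p = 0.994), and 0.12 without NI1 (SE 0.36, adjusted p = 0.862), and its sign changed in 7 of 22 alternatives.

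Insr (ENSMUSG00000005534, chr8:3122061-3279617, minus strand), the insulin receptor, was the steadiest of the 7 tested genes. It was 101, 90.3 and 90.1 CPM in M1, M2 and M3, while the values of M4, M5 and M6 were 71.8, 65.3 and 99.0 CPM. NI1, NI2 and NI3 had 108, 93.2 and 95.4 CPM. The highest tumor was 1.55-fold above the lowest, and 4 of 6 tumors lay below all islet libraries. The log2 fold change was -0.20 (SE 0.18, adjusted p = 0.561), and -0.13 without NI1 (SE 0.21, adjusted p = 0.737).

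Per kilobase of exon the median over the 6 tumors was 15.7 CPM per kilobase for Igf2r, 6.56 for Insr and 3.64 for Igf1r, and the medians over the 3 islet libraries were 14.5, 6.94 and 4.04. The order Igf2r, Insr, Igf1r held in each of the 9 libraries. Between the ligands, the median over tumors was 82.5 CPM per kilobase for Igf2 and 2.06 for Igf1. M2 was the one library in which Igf1, at 1.33 CPM per kilobase, exceeded Igf2, at 0.401.

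The genes for the IGF2 mRNA-binding proteins were close to or under the limit of detection. Igf2bp1 (ENSMUSG00000013415, chr11:95957163-96005940, minus strand) had 3 counts in M2, 3 in M4, 2 in NI2 and 0 in the other 6 libraries. Igf2bp3 (ENSMUSG00000029814, chr6:49085223-49214957, minus strand) had 1 count in M3, 7 in NI1, 3 in NI2 and 0 in the other 6. Neither was detectable in most libraries at this depth.

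Igf2bp2 (ENSMUSG00000033581, chr16:22059009-22163299, minus strand) was counted in all 9 libraries at low numbers. It had 5, 15 and 13 counts in M1, M2 and M3, and 2, 20 and 8 counts in M4, M5 and M6. NI1, NI2 and NI3 had 3, 15 and 17 counts. The highest level, 0.491 CPM in M5, lay above the islets, and the other 5 tumors lay within the range of the islet libraries. Once no filter on low counts was used, all 10 genes were tested and 0 passed.

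**Figure D3:**
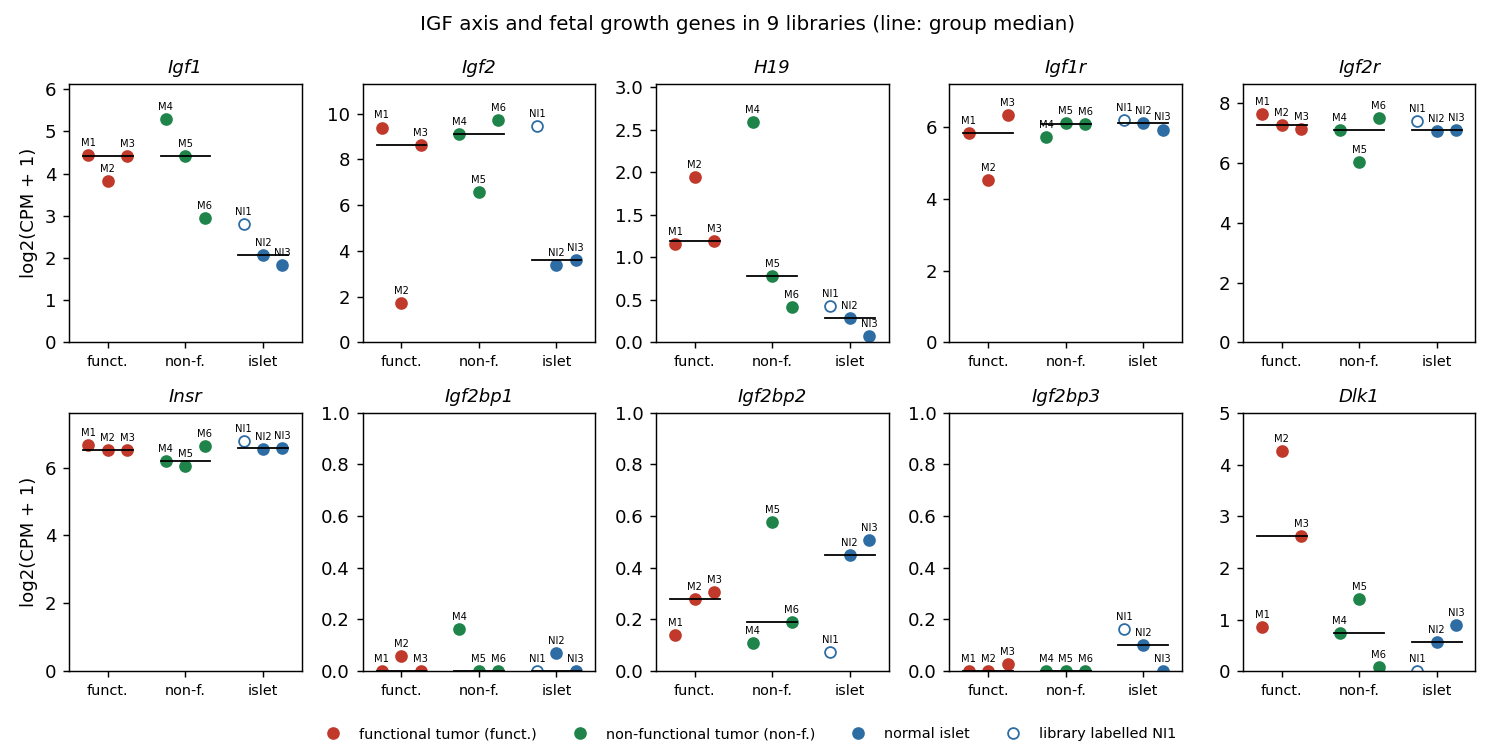
Log2(CPM + 1) of the 10 genes, 1 point per library, with functional tumors, non-functional tumors and normal islets side by side and a line at each group's median (CPM are TMM-scaled). The vertical scale differs between panels. Igf2 spans 2.29 to 830 CPM, the 3 receptors lie between 22.0 and 199.7 CPM, and the 3 Igf2bp genes lie below 1 CPM in every library.

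Of the 7 tested genes, 0 passed an adjusted p of 0.05 for tumors against islets, where 0.258% of the 15532 tested genes did, all 40 of them lower in tumors. Igf1 and H19 reached an unadjusted p under 0.05, as did 19.8% of all tested genes. DESeq2 passed the same pair, where it passed 8.06% of the tested genes. Without NI1 only Igf1 passed, where 8.51% of all tested genes did. Igf1 was also the single gene of the 7 with all tumors above all islet libraries, a pattern that 4.5% of the tested genes had. The median log2 fold change of the 7 was 0.83, against 0.03 over all tested genes, and 2.70 against 0.05 without NI1. The first of these medians is the value of Igf2 and the second that of Dlk1. Since H19 and Dlk1 were tested through their tumor levels alone, these counts and medians are a description of the 7 and not of all 10.

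**Figure D4:**
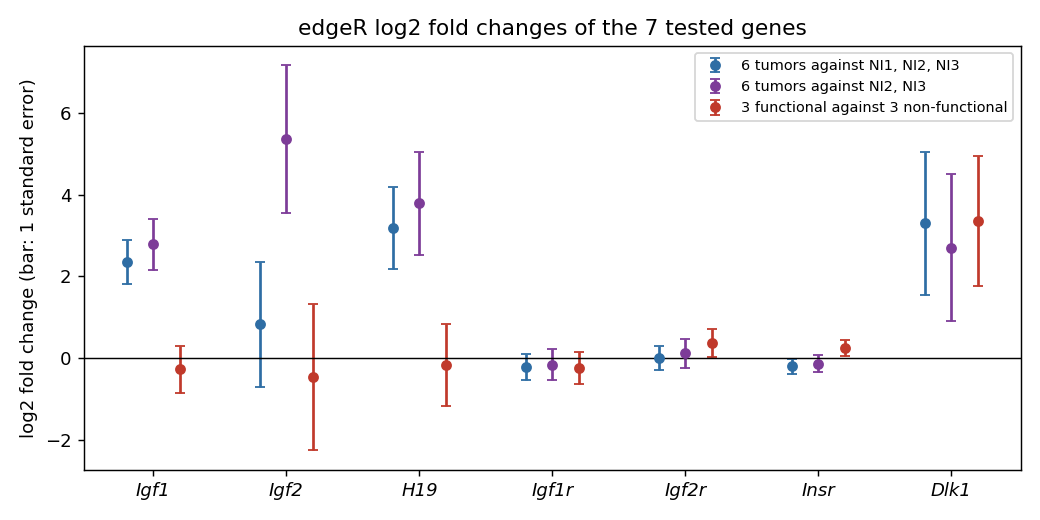
Log2 fold changes from edgeR of the 7 tested genes for the 6 tumors against 3 islet libraries, the 6 tumors against NI2 and NI3, and the 3 functional against the 3 non-functional tumors, with bars of 1 standard error. Leaving out NI1 moves Igf2 from 0.83 to 5.36, whereas Igf1r, Igf2r and Insr stay near 0 in all 3 comparisons.

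Functional and non-functional tumors were next compared for the same genes. Of the 7 tested genes, 0 passed the adjusted threshold and 0 reached an unadjusted p under 0.05. Over all tested genes 0% passed with edgeR, while DESeq2 passed 111 genes and 0 of the 7. None of the 7 had all functional tumors on one side of all non-functional ones, which 15% of the tested genes had. Dlk1 had the largest difference, with a mean of 8.02 CPM ± 9.03 (SD, n = 3) in functional and 0.783 CPM ± 0.790 (SD, n = 3) in non-functional tumors. Its log2 fold change was 3.36 (SE 1.59, adjusted p = 0.501), and without M2 it was 1.92 (SE 1.61, adjusted p = 0.675). M1 lay below M5, so the groups overlapped.

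The ligands did not separate the 2 kinds of tumor either. Functional against non-functional tumors gave a log2 fold change of -0.27 for Igf1 (SE 0.56, adjusted p = 0.895) and of -0.46 for Igf2 (SE 1.79, adjusted p = 0.950). For H19 it was -0.17 (SE 1.00, adjusted p = 0.967). The sign turned for Igf1 without M4, for Igf2 without M2 or M6, and for H19 without M1, M3 or M4. The receptors gave -0.24 for Igf1r (SE 0.38), 0.37 for Igf2r (SE 0.34) and 0.25 for Insr (SE 0.19), with adjusted p of 0.853, 0.730 and 0.664. The lowest Igf1r was in a functional tumor, M2, and the lowest Igf2r and Insr were in a non-functional one, M5.

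The other genes of the pathway were read from 6 lists. Of the 65 different genes tested from these lists, 0 passed with edgeR for tumors against the 3 islet libraries, 9 reached an unadjusted p under 0.05 and 9 passed with DESeq2, where 19.8% and 8.06% of all tested genes did. Without NI1 edgeR passed 2 of them, where it passed 8.51% of all tested genes.

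Of the 8 genes for IGF binding proteins, which hold the ligands outside cells, 7 were tested. Their median log2 fold change was 0.26, and 0.54 without NI1. Here 2 reached an unadjusted p under 0.05 with higher levels in tumors, where 19.8% of all tested genes did in either direction, and 6 of 7 had a positive sign, as did 8155 of the 15532 tested genes. Igfbp2 was the one gene whose tumors all lay above the islet libraries, with 0.704 to 31.0 CPM in tumors and a median of 2.84 CPM. It was 0.497, 0.634 and 0.0991 CPM in NI1, NI2 and NI3. Its log2 fold change was 4.14 (SE 1.37, adjusted p = 0.168), and 4.30 without NI1 (adjusted p = 0.154). DESeq2 passed Igfbp2 and also Igfbp6, which is named after its values were seen. Igfbp2 reached the filter of 1 CPM through tumors alone, the group in which it was higher. M4, the tumor with most Igf1 and H19, also had the most Igfbp2.

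Of the 4 proteases and inhibitors that act on binding proteins, all 4 were tested and 0 passed in edgeR with all libraries, while DESeq2 passed Pappa2 as lower in tumors. Without NI1 edgeR passed it too, and Pappa2, a protease of IGF binding proteins, fell by 2.63 on the log2 scale (adjusted p = 0.0107). With all libraries its log2 fold change was -2.22 (SE 0.49, adjusted p = 0.126). It was named after its values were seen. Its level was 47.0, 36.1 and 25.8 CPM in M1, M2 and M3, while the values of M4, M5 and M6 were 33.1, 99.1 and 70.0 CPM. NI1 had 84.2 CPM, inside the tumor range, while NI2 and NI3 had 390 and 250 CPM.

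The insulin genes were lower in every tumor than in every islet library, a pattern that 492 of the 15532 tested genes had. Ins1 ranged from 3827 to 21305 CPM in tumors and was 21653, 57143 and 75991 CPM in NI1, NI2 and NI3. Its log2 fold change was -1.89 (SE 0.71, adjusted p = 0.196), and -2.26 without NI1 (adjusted p = 0.0891). Ins2 ranged from 7313 to 88719 CPM in tumors and was 88895, 232991 and 248686 CPM in the same islet libraries, with a log2 fold change of -2.11 (SE 0.99, adjusted p = 0.270), and -2.45 without NI1 (adjusted p = 0.175). For both genes the highest tumor lay just under NI1, and DESeq2 passed both. The lowest values were in M2 and M3, which are functional tumors by label.

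Of 25 receptor substrates and members of the PI3K-Akt-mTOR relay, which carries the receptor's signal to growth, 24 were tested. Here 0 passed with or without NI1, 0 reached an unadjusted p under 0.05, 0 were without overlap between tumors and islets, and the median was 0.14, or 0.09 without NI1. DESeq2 passed 0 as well. For functional against non-functional tumors 6 of the 24 had all functional tumors above all non-functional ones, 0 lay the other way and 0 passed, where 15% of all tested genes were without overlap in either direction. Of the other lists, 3 of 8 Lin28, let-7 and oncofetal genes were higher in all functional tumors, 2 of 7 binding protein genes and 1 of 4 proteases and inhibitors were lower, and 1 of 20 imprinted genes lay each way.

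Imprinted fetal growth genes formed the list of 25 with 20 tested, of which 0 passed in edgeR with all libraries, while DESeq2 passed Nnat, Plagl1 and Dio3 as higher in tumors. The median was 0.39, or 0.44 without NI1, with an unadjusted p under 0.05 for 3 that were higher and 1 that was lower, where 19.8% of all tested genes reached it. Nnat, an imprinted gene for a small membrane protein of the endoplasmic reticulum, was 160, 144 and 169 CPM in M1, M2 and M3, while the values of M4, M5 and M6 were 186, 345 and 94.7 CPM. It was 75.6 CPM in NI1, 4.39 CPM in NI2 and 15.7 CPM in NI3. All tumors lay above all islet libraries, with NI1 nearer to the tumors. As a log2 fold change this was 2.52 (SE 0.79, adjusted p = 0.163), and without NI1 Nnat rose by 4.19 (SE 0.69, adjusted p = 0.0104).

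The last list held 11 genes of the Lin28, let-7 and oncofetal group, 8 of them tested, with a median of 0.00, or 0.01 without NI1, and 0 passed. Myc, the transcription factor gene, was the one without overlap. It was lower in every tumor than in every islet library, a pattern that 492 of the 15532 tested genes had. It ranged from 4.33 to 19.2 CPM in tumors, highest in M6, and was 20.1, 25.7 and 22.1 CPM in NI1, NI2 and NI3. Its log2 fold change was -1.44 (SE 0.43, adjusted p = 0.161), and -1.52 without NI1 (adjusted p = 0.0920), and DESeq2 passed it.

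**Figure D5:**
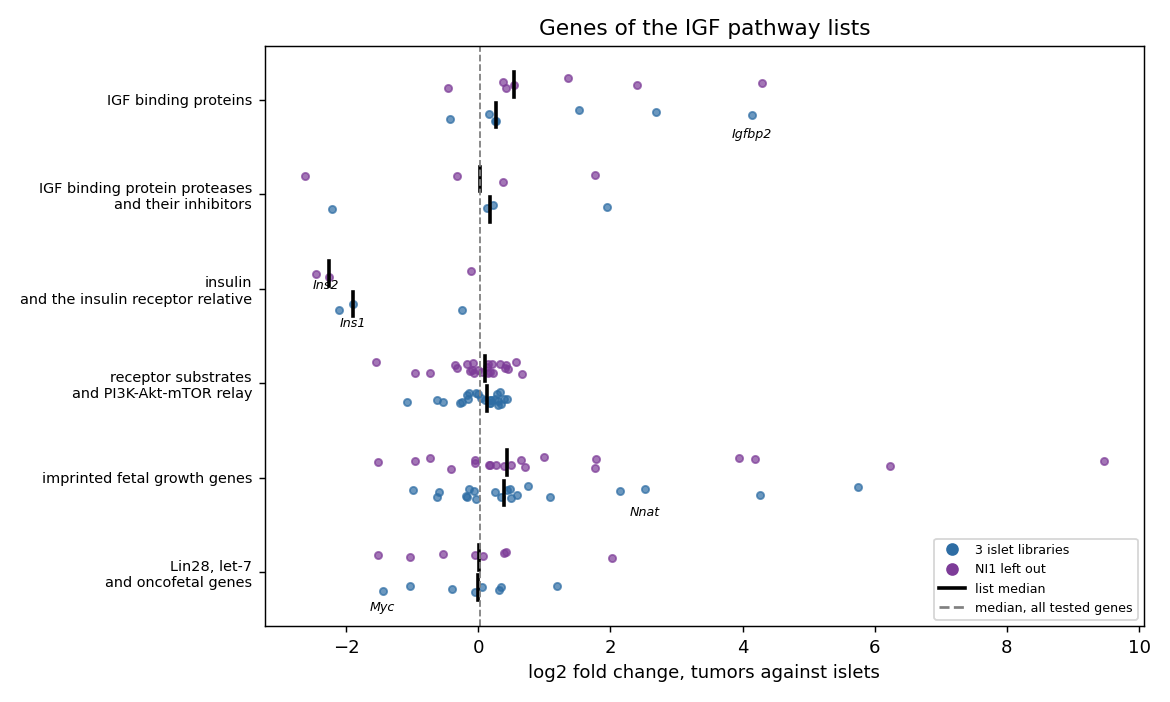
Log2 fold changes of tumors against islets for the tested genes of 6 lists, with all 3 islet libraries (blue) and with NI1 left out (purple), 1 point per gene, spread vertically for legibility. Black bars are list medians, from -1.89 for the insulin genes to 0.39 for the imprinted genes with all islet libraries, and the dashed line is the median of all tested genes at 0.03. Genes named for their lack of overlap are marked.

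Genes with the most similar pattern over the 9 libraries were sought for the 4 members with the widest range, by the root mean square difference of log2(CPM + 1) after centring each gene on its mean. For Igf2 these were its antisense gene Igf2os with 0.88, Ulbp1 with 1.47 and Barx2 with 1.58. Ulbp1 encodes a ligand of an activating receptor of natural killer cells and Barx2 a homeobox protein. Barx2 was 161 CPM in M6, 134 CPM in NI1 and 1.08 CPM in M2. Only Igf2os thus had a root mean square difference from Igf2 of less than 1 log2 unit. Barx2 shared M2 as its lowest library with Igf2, which a choice by likeness favours.

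Dlk1 was most like Ankrd34c with 0.42, Serpina1c with 0.54 and Mybph with 0.56. Ankrd34c was 17.8 CPM in M2, 10.2 CPM in M3 and at most 1.70 CPM in the other libraries. All 3 had their highest level in M2. For Igf1 the closest were Anxa1 with 0.23, D630003M21Rik with 0.25 and C5ar1, the complement C5a receptor of myeloid cells, with 0.25. Anxa1 was 54.5 CPM in M4 and 4.86 CPM in NI3. H19 was most like P4ha3 with 0.20, Steap3 with 0.25 and Lama1 with 0.26. P4ha3 encodes a subunit of collagen prolyl hydroxylase and Lama1 a laminin chain. M4 was the highest library for all 6 genes close to Igf1 and H19, as it was for Igf1 and H19. These neighbours, like those of Dlk1, were picked for likeness over the same 9 libraries. Sharing a highest library thus follows largely from that choice.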

How the data were processed

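RNA from 9 mouse samples was sequenced as single-end reads, after preparation with a kit that does not mark strand. Per the submitters' processing notes and the study's methods, reads were trimmed with Trimmomatic 0.38 and quantified with Salmon 1.4.0 on mm10, and DESeq2 was the authors' test. The table that the authors deposited gives each gene an estimated count, a whole number not scaled between libraries. Although the table is named for TPM, the column totals lay between 36468280 and 63637175, so edgeR was used on it as on counts. The step from transcripts to genes is not given in the sources used here.

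Symbols and coordinates came from GENCODE on GRCm38 and matched 54094 of 54347 identifiers, and the other 253 took 0.0121% of all counts. A gene was tested where 3 or more of the 9 libraries reached 1 CPM, which left 15532 genes. TMM scaling preceded the edgeR quasi-likelihood test (edgeR 4.0.16, R 4.3.3). All 6 tumors were set against the islets as 1 group, and the 2 kinds of tumor were compared with the islets kept in the model as a group of their own. Two-sided p-values were adjusted by Benjamini-Hochberg over all tested genes, and a gene passed at an adjusted p under 0.05. SE is the size of the log2 fold change over the square root of F. CPM are TMM-scaled. Both models were tested on simulated data with 200 changed genes.

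The 10 genes, the pathway lists and the marker lists were chosen with earlier results of these data known. Of each pathway list, genes past the threshold in either comparison were named, or, where none passed, the 2 largest and 2 smallest fold changes among genes whose tumors and islets did not overlap. Likeness was computed for the 4 members with the widest range, with 3 genes each. Sequences came from RefSeq on GRCm38.p6, which listed promoters for 7 of the 10 genes.

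Alternatives changed the filter, the scaling, the tool (DESeq2 1.42.0, limma 3.58.1 with voom), the grouping and a replicate block, or left out each library in turn. DESeq2 and voom without NI1, and NI1 and M6 both left out, were added after the data were seen. Leave-out fits kept the same 15532 genes.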

Additional observations from a re-analysis of the deposited data

Results flagged for a closer look

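Among the 6 tumors, 24 genes named in the report were checked for a single library far from the rest. The measure was the gap to its neighbour over the whole range (above 0.625 for 6 samples), on CPM without a log scale. Chance picks out a library in about 5% of groups, but these genes were named for their spread or pattern, so their number, 6, was not set against chance. Dlk1 was highest in M2 at 18.1 CPM, with 5.11 CPM in M3 next and a gap of 0.72 of the range. Serpina1c, picked for its likeness to Dlk1, was also highest in M2, at 8.02 CPM against 1.87 CPM in the next tumor. In M4, Igfbp2 was 31.0 CPM against 5.05 CPM in the next tumor. C5ar1, picked for its likeness to Igf1, was 14.9 CPM there against 7.47 CPM. Nnat was highest in M5, with 345 CPM and 186 CPM in the next tumor. Myc was highest in M6 at 19.2 CPM, with 8.20 CPM next, and M6 was the tumor closest to the library labelled NI1, which had 20.1 CPM. The low Igf2 of M2, 2.29 CPM, was not picked out. On the CPM scale its gap to M5, at 94.2 CPM, was small beside a range up to 830 CPM. A log scale, on which low values weigh more, was not used for this check.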

How the results depend on the processing

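For tumors against islets, edgeR passed 0 of the 7 tested genes, and 17 of 22 alternatives gave 0 as well. DESeq2 gave 2 (Igf1 and H19), DESeq2 without NI1 gave 3 (Igf2 as well), and NI1 and M6 both left out gave 1 (Igf1). Leaving out single libraries gave 0 to 1, with Igf1 passing without M6 or without NI1. For functional against non-functional tumors all 16 alternatives gave 0. Over all genes the 40 calls became 1252 with DESeq2, 1321 without NI1, 217 without M6, 104 with no filter, 98 in the fit of 3 groups, 69 without M4, 66 with total counts, 21 at the filter of 5 CPM, and 7 to 24 without M1, M2, M3, M5, NI2 or NI3. Without NI1, DESeq2 passed 2950 genes and voom 1065, and edgeR without NI1 and M6 passed 1451. Functional against non-functional tumors went from 0 to 111 genes with DESeq2 and to 1 with no filter or without M2.

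Signs turned for some values that passed in neither fit. For tumors against islets, total counts gave 0.0073 for Igf1r and 0.025 for Insr, where the median of all genes was 0.25. Igf2r was -0.072 with voom, -0.0060 in the fit of 3 groups, and -0.11 to 0.16 with single libraries left out. For functional against non-functional tumors, total counts gave 0.23 for Igf1, 0.45 for H19 and 0.095 for Igf1r, with a median of all genes of 0.32, and voom gave 0.22 for Igf1 and 1.05 for H19. Single libraries left out gave -0.70 to 0.41 for Igf1, -1.30 to 0.15 for Igf2, -0.68 to 1.77 for H19 and -0.68 to 0.13 for Igf1r. The cause was not tested.

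Replicate numbers are shared by M1 to M3 and NI1 to NI3 only, and same-numbered libraries did not deviate together (correlations of -0.052, 0.030 and -0.159). The replicate block over these 6 libraries gave 0 of the 7 genes and 35 genes in all, against 0 and 130 without it. Depth limits the Igf2bp genes, Dlk1 in M6 and NI1, and H19 in NI3, which had 3 counts or fewer in some libraries.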

Other observations

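Other imprinted genes varied between tumors without passing the edgeR threshold, and the following were named after their values were seen. Plagl1, an imprinted zinc finger transcription factor gene, had 8.54, 70.5 and 73.9 CPM in the functional tumors M1 to M3 and 9.43, 25.9 and 0.933 CPM in the non-functional tumors M4 to M6. It was 0.823, 0.976 and 3.12 CPM in NI1, NI2 and NI3. M6 again lay among the islet libraries, and the log2 fold change was 4.27 (SE 1.30, adjusted p = 0.161), or 3.94 without NI1 (adjusted p = 0.148). DESeq2 on all 9 libraries passed Plagl1 and Dio3. Dio3, the thyroid hormone deiodinase gene of the Dlk1 cluster, reached the filter of 1 CPM through tumors alone. It was highest in M4 at 7.05 CPM, 1.63 CPM in M2, and had 0 counts in NI2 and NI3. Zim1 was 169 CPM in M1, 188 CPM in M3 and 0.127 CPM in M2, which was its lowest library, as for Igf2. It was 91.1, 53.3 and 6.05 CPM in M4, M5 and M6, and 8.35, 24.1 and 25.2 CPM in NI1, NI2 and NI3. M6 and NI1, the highest for Igf2, were thus low for Zim1, and the order of Igf2 was not shared. Meg3, the noncoding RNA of the Dlk1 cluster, did not share the order of Dlk1. It was 1478 CPM in M2 and 3464 CPM in M4, with 264 to 1423 CPM in the islet libraries.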
